A study of Rattus norvegicus with 25 samples.

Results

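A single comparison of the forced swim test (FST) data is described here, that of rats killed 20 min after the test (20-m group) with rats killed 24 h after it (24-h group), restricted to sequencing Batches 1 and 2. Those are the only batches that hold rats of both times, and they hold them in equal numbers. The 20-m group was rats 1, 2 and 6 of Batch 1 and rats 5, 7 and 12 of Batch 2, and the 24-h group was rats 13, 18 and 19 of Batch 1 and rats 14, 15 and 17 of Batch 2. These 12 rats are part of 19 rats (25 libraries) in the whole series. Rat 10 of the 20-m group, which was sequenced outside both batches, and all control rats were left out. Rat numbers and groups are those of the sample labels, from which the supplementary tables of the study depart for some rats. Its animal measurements place rat 12 in the 24-h group and rats 17, 18 and 19 among the controls. Those measurements lack some of the rat numbers that the labels use, so a shared number need not mean the same animal. The study's read totals omit rats 6 and 13 and give rats 10 and 12 identical values.

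All 12 were male Sprague Dawley rats that had gone through the FST, in which a rat is confined to a cylinder of water, after a pretest on the previous day. The hippocampus of each animal was a separate sample, from which polyadenylated RNA was sequenced. Both groups swam, so the comparison asks which transcripts differ between an early and a late time after the same stressor, and gives no level for a rat that did not swim. The tissue is whole hippocampus, so that fewer cells of a type and less RNA per cell cannot be told apart, and cell type or tissue markers were not analysed here because the identifiers could not be named.

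Immediate early genes are genes whose transcription starts within minutes of a stimulus without the need for new protein, and whose transcripts are short-lived. In the brain they are known to respond to neuronal activity and to stress. Some encode transcription factors, and others encode enzymes, secreted proteins or regulators of mRNA decay that limit the signal that induced them.

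Summed expected counts, the estimated number of reads per gene added over all genes, were 6513085 to 7774046 in the 20-m rats and 6529689 to 8202448 in the 24-h rats. The first principal component of log2 CPM (counts per 1000000 counts of a library scaled by TMM) held 27.05% of the variance and separated the batches, with Batch 1 at -35.0 to -16.01 and Batch 2 at 13.8 to 24.9. The second (21.4%) set rat 12 of the 20-m group at -54.9, with all others between -18.1 and 17.7, and the third (10.6%) set rat 13 of the 24-h group at 36.2. Rat 12 had 783 genes over 2-fold away from the mean of the other rats of its group and batch, against 152 to 528 in the other 11 rats. Results are therefore also given without rat 12, or without rats 12 and 13.

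**Figure D1:**
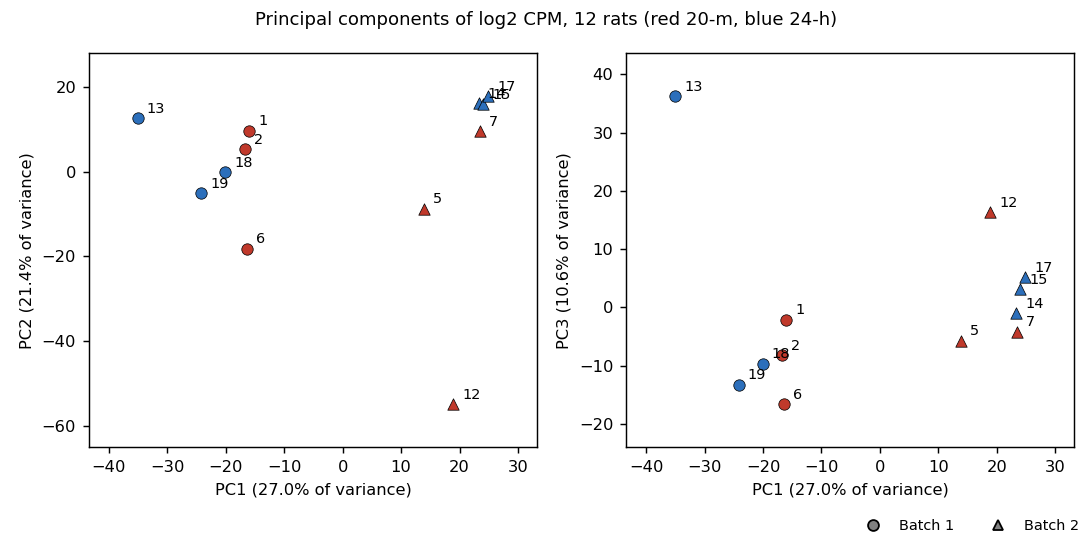
Scores of the 12 libraries on the first against the second (left) and the third (right) principal component of log2 CPM, with rat numbers beside the points. Circles are Batch 1 and triangles Batch 2, red is the 20-m group and blue the 24-h group, and the batches lie apart on the first component while rats 12 and 13 lie apart on the second and the third.

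Of 13573 genes tested, 5 were higher by more than 1.5-fold in the 20-m group with an adjusted p under 0.05 (0.0368% of genes), and 0 were lower (0%, edgeR's quasi-likelihood test with batch as a term, Benjamini-Hochberg adjustment). The 5 were Dusp1, Ccn1, Apold1, Btg2 and ENSRNOG00000005634. The count at an unadjusted p under 0.05 was 673 higher (4.96%) and 655 lower (4.83%), and limma voom also called 5 genes. Without rat 12, 4 genes were called (0.0292%), ENSRNOG00000005634 falling to an adjusted p of 0.0644. Without rats 12 and 13, 8 genes were called (0.059%), of which 7 were higher and 1 lower.

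Names came from a list of 13 identifiers that the study chose by comparing 20-m rats of this experiment with control rats, so the list is not independent evidence of a direction here. Of its 13 members 11 had enough counts to be tested, 10 of these had a higher fitted level at 20 min, 1 had a lower one, and 4 passed both thresholds. The median log2 fold change of the 11 was 0.86, and that of all genes tested lay at 9.49e-06. The fitted direction was the same in both batches for all 10 members that could be tested in each. Over all genes tested, 6787 of 13573 had a higher fitted level at 20 min. Among the 13342 of those 13573 genes that could also be tested in each batch, 6993 had the same direction in both.

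The regulatory stretches of the 4 named genes that passed are shown so that a few known promoter motifs can be read in them. Each is the 250 bases before the transcription start on the gene's strand, taken from RefSeq on build GRCr8, which is not the Rnor 6.0 build of the counts. Capitals mark the cAMP response element (CRE) TGACGTCA, its half-site (TGACG, or CGTCA on the other strand), and the TATA motif TATAAA, which was searched on the gene's strand only.
Dusp1 (chr10:17184603-17184852, plus strand): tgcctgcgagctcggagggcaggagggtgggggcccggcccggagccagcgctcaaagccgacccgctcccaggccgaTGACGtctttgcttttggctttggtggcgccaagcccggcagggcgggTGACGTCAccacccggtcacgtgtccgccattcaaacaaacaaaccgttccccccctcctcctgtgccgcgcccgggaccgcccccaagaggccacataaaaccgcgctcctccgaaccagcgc
Apold1 (chr4:169552349-169552598, plus strand): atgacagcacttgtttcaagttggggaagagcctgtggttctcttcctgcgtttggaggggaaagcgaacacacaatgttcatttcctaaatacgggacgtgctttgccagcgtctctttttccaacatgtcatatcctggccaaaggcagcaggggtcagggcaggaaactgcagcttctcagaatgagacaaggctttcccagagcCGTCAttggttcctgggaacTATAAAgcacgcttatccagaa
Ccn1 (chr2:237225690-237225939, minus strand): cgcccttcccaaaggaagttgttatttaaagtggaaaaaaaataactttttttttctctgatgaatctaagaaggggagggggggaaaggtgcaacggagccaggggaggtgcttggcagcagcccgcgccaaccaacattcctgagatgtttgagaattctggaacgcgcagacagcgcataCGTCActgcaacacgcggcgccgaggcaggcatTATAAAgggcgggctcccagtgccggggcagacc
Btg2 (chr13:48087691-48087940, minus strand): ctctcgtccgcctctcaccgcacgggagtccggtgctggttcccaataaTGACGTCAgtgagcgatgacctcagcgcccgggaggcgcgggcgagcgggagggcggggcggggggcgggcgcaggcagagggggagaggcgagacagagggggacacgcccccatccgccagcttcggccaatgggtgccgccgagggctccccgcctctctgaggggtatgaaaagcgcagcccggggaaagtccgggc

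The CRE stood 124 bases before the start of Dusp1 and 201 before that of Btg2, and a CRE was held by 1.59% of 33469 promoter stretches of the same length. A CRE contains both half-sites, so these overlap. A half-site was held by 5 of the 7 named genes that the promoter table lists (Dusp1, Apold1, Ccn1, Btg2 and Sik1), and by 18.2% of all stretches. TATAAA lay 22 bases before the start of Apold1 and 34 before that of Ccn1 (8.06% of all stretches), and a CArG box, the element bound by serum response factor, lay 32 bases before that of Zfp36 (1.5%). Atf3, Fos and Klf2 were not matched. These matches describe letters in a window, with no measure of binding.

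The named genes that act in intracellular signalling were Dusp1 and Sik1. Dusp1 encodes a dual-specificity phosphatase that inactivates MAP kinases. Its level was 27.2, 36.0 and 27.1 CPM in 20-m rats 1, 2 and 6 and 24.9, 27.4 and 25.6 CPM in rats 5, 7 and 12. In 24-h rats it was 11.1, 10.3 and 6.97 CPM in rats 13, 18 and 19 and 10.1, 11.8 and 9.04 CPM in rats 14, 15 and 17. The lowest 20-m rat was thus well above the highest 24-h rat. Mean levels were 28.03 ± 4.03 CPM against 9.88 ± 1.71 CPM (SD, n = 6 each), a log2 fold change of 1.498 (SE 0.13, 95% interval 1.22 to 1.78, adjusted p = 0.000166). It was 1.66 in Batch 1 and 1.34 in Batch 2 fitted alone, and 1.52 without rat 12.

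Sik1 encodes a salt-inducible kinase that restrains transcription driven by CREB, the factor that binds the CRE. It ran from 10.4 to 16.03 CPM at 20 min and from 8.16 to 17.5 CPM at 24 h, and the highest rat of all 12 was 24-h rat 13. The groups overlapped, and the log2 fold change of 0.51 (SE 0.18, 95% interval 0.12 to 0.89) did not pass the adjusted test (adjusted p = 0.470, edgeR's quasi-likelihood test). Without rat 13 it was 0.72 (adjusted p = 0.0851).

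Ccn1 and Apold1 are known for roles outside the nucleus, Ccn1 (Cyr61) as a secreted protein of the extracellular matrix and Apold1 as a membrane protein of endothelial cells. Ccn1 was the lower of the pair and had the largest fitted fold of the named genes. It stood at 8.96, 14.3, 7.99, 5.02, 9.40 and 4.34 CPM in 20-m rats 1, 2, 6, 5, 7 and 12 and at 0.783, 0.68, 0.427, 1.01, 1.13 and 0.153 CPM in 24-h rats 13, 18, 19, 14, 15 and 17. All 20-m rats were above all 24-h rats, whose values rest on 1 to 9 counts each against 28 to 114 at 20 min. The means of 8.34 ± 3.58 and 0.697 ± 0.364 CPM (SD, n = 6) gave a log2 fold change of 3.50 (SE 0.35, 95% interval 2.75 to 4.26, adjusted p = 0.000576). It was 4.01 in Batch 1 and 2.98 in Batch 2, where alone the adjusted p was 0.0602 and 0.123 (edgeR's quasi-likelihood test).

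Apold1 measured 20.8, 34.0, 31.5, 21.02, 22.5 and 28.1 CPM in 20-m rats 1, 2, 6, 5, 7 and 12. In 24-h rats 13, 18, 19, 14, 15 and 17 it measured 8.48, 3.93, 4.69, 3.33, 5.27 and 5.05 CPM. The groups did not overlap, and rat 13 was the highest 24-h rat. With means of 26.3 ± 5.70 and 5.13 ± 1.80 CPM (SD, n = 6), the log2 fold change was 2.35 (SE 0.19, 95% interval 1.94 to 2.77, adjusted p = 0.000141, edgeR). It was 2.33 in Batch 1 and 2.39 in Batch 2, the nearest pair of batch values among the genes called. Left without rat 12 it was 2.298, and left without rat 13 it was 2.54.

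**Figure D2:**
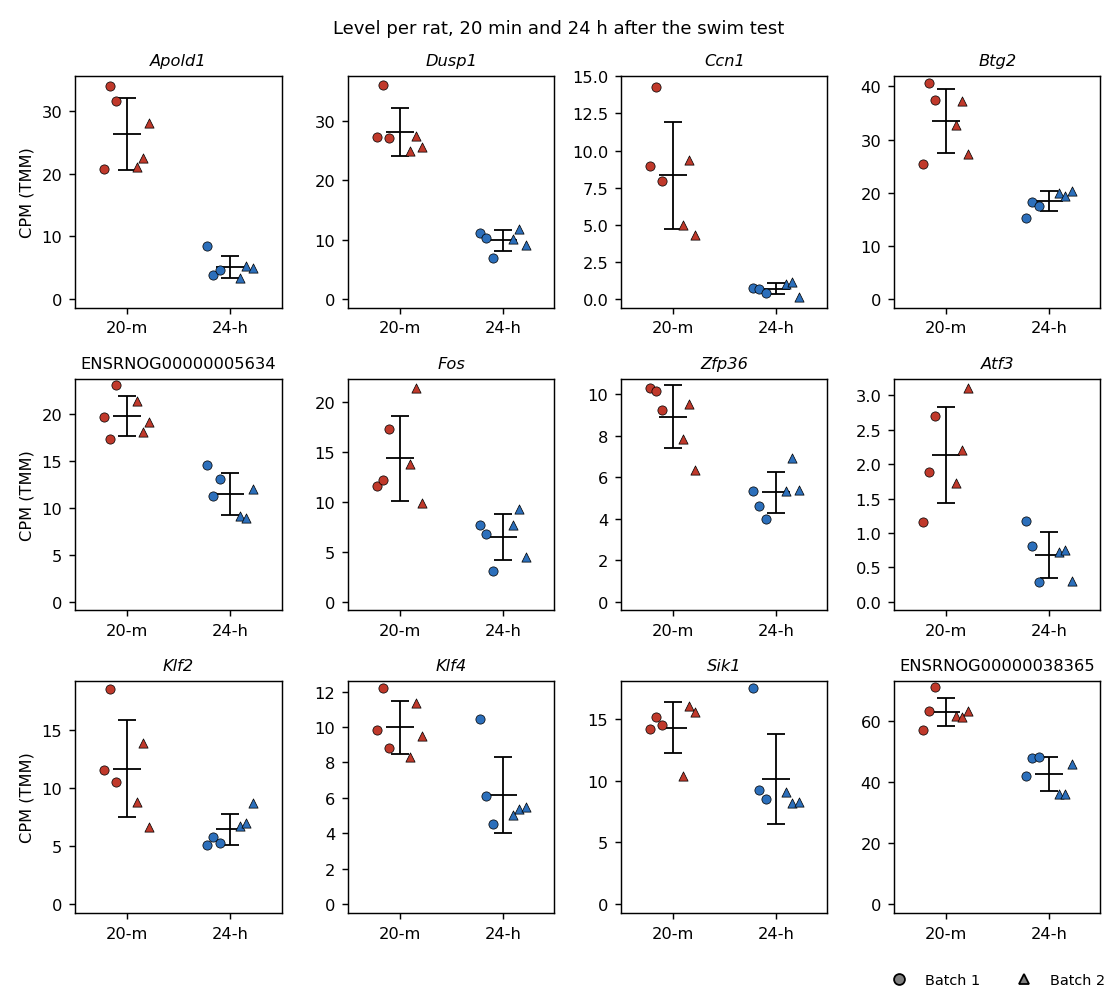
TMM-scaled CPM in each of the 12 rats for 12 genes, with circles for Batch 1, triangles for Batch 2, and the mean ± SD of 6 rats in black. The groups lie apart for the 7 genes Apold1, Dusp1, Ccn1, Btg2, Fos, ENSRNOG00000005634 and ENSRNOG00000038365 and overlap for the other 5.

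Btg2 and Zfp36 take part in mRNA decay, Btg2 as a cofactor of deadenylation and Zfp36 (tristetraprolin) as a protein that binds AU-rich elements. Btg2 was at 25.4, 40.7, 37.4, 32.8, 37.3 and 27.3 CPM in 20-m rats 1, 2, 6, 5, 7 and 12 and between 15.3 (rat 13) and 20.4 CPM (rat 17) in the 24-h rats. The groups did not overlap, and the 24-h rats varied less than the 20-m rats in CPM. Means were 33.5 ± 6.07 and 18.4 ± 1.88 CPM (SD, n = 6), with a log2 fold change of 0.86 (SE 0.12, 95% interval 0.60 to 1.13, adjusted p = 0.0273). The call was sensitive to single rats. With each rat left out in turn it passed in 2 of 12 fits, those without 20-m rat 1 and without 20-m rat 12, and the adjusted p lay between 0.00839 and 0.121 (edgeR) while the log2 fold change stayed at 0.79 to 0.93.

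Zfp36 ran from 6.36 (rat 12) to 10.3 CPM (rat 1) at 20 min and from 3.98 (rat 19) to 6.90 CPM (rat 15) at 24 h. Rat 12 was the single 20-m rat below the highest 24-h rat. The log2 fold change of 0.76 (SE 0.16, 95% interval 0.42 to 1.09) did not pass the adjusted test (adjusted p = 0.307, edgeR), and without rat 12 it was 0.85 (adjusted p = 0.0955). It was 1.08 in Batch 1 and 0.44 in Batch 2, a difference with an unadjusted p of 0.0308 and an adjusted p of 0.535 for the interaction of group and batch.

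The named transcription factors were Fos and Atf3, of the basic leucine zipper class, and Klf2 and Klf4, zinc finger proteins of the Krüppel-like family. None passed the test, although Fos did not overlap between the groups. Fos, a subunit of AP-1, was at 11.6, 12.2, 17.3, 13.8, 21.4 and 9.93 CPM in 20-m rats 1, 2, 6, 5, 7 and 12. At 24 h it was at 7.70, 6.77, 3.13, 7.66, 9.29 and 4.44 CPM in rats 13, 18, 19, 14, 15 and 17. The lowest 20-m rat, rat 12, was just above the highest 24-h rat, rat 15. The means of 14.4 ± 4.27 and 6.50 ± 2.29 CPM (SD, n = 6) gave a log2 fold change of 1.14 (SE 0.24, 95% interval 0.62 to 1.66, adjusted p = 0.319, edgeR), with 1.21 in Batch 1 and 1.08 in Batch 2. DESeq2 put Fos at an adjusted p of 0.0117.

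Atf3, a stress-inducible repressor and activator, had 8 to 20 counts in 20-m rats and 2 to 9 in 24-h rats and did not pass the filter on low counts. Its means were 2.13 ± 0.702 and 0.676 ± 0.336 CPM (SD, n = 6). 20-m rat 1, at 1.16 CPM, was level with 24-h rat 13, at 1.17 CPM, and the other 5 20-m rats were above all 24-h rats.

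Klf2 ran from 6.67 (rat 12) to 18.6 CPM (rat 2) at 20 min and from 5.09 (rat 13) to 8.73 CPM (rat 17) at 24 h, with a log2 fold change of 0.86 (SE 0.23, 95% interval 0.37 to 1.35, adjusted p = 0.413). Batch 1 gave 1.33 and Batch 2 gave 0.41, with an unadjusted p of 0.0318 and an adjusted p of 0.539 for that difference. In Batch 1 the groups lay apart, and in Batch 2 rat 12 was below all 3 of the 24-h rats. Klf4 ran from 8.31 to 12.2 CPM at 20 min and from 4.55 to 10.4 CPM at 24 h. Rat 13 was again the highest of its group, and no other 24-h rat exceeded 6.09 CPM. Its log2 fold change was 0.70 (SE 0.18, 95% interval 0.31 to 1.09, adjusted p = 0.396, edgeR), and 0.90 without rat 13 (adjusted p = 0.0520).

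Compared per transcript length in TPM (transcripts per 1000000 transcripts), the order of mean levels at 20 min was Dusp1 (19.05), Btg2 (17.2), Klf2 (15.0), Fos (12.1), Apold1 (11.9), Zfp36 (6.49), Ccn1 (5.56), Klf4 (5.53), Sik1 (3.71) and Atf3 (1.42). At 24 h the order was Btg2 (9.94), Klf2 (8.69), Dusp1 (7.08), Fos (5.70), Zfp36 (4.03), Klf4 (3.59), Sik1 (2.76), Apold1 (2.42), Ccn1 (0.487) and Atf3 (0.458). Apold1 moved from the fifth place to the eighth and Dusp1 from the first to the third. Neighbours in either order often differ by little, Fos and Apold1 at 20 min among them, and were not tested.

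Besides the named genes, the identifiers ENSRNOG00000005634 and ENSRNOG00000038365 passed the adjusted p, as did 6 genes in all (0.0442%), each higher at 20 min. ENSRNOG00000005634 was at 17.3 to 23.0 CPM at 20 min and 8.91 to 14.5 CPM at 24 h, with no overlap, a log2 fold change of 0.79 (SE 0.12, 95% interval 0.54 to 1.05) and an adjusted p of 0.0317. With each rat left out in turn it passed in 2 of 12 fits (without 20-m rat 2 and without 24-h rat 13), with adjusted p between 0.0253 and 0.158. ENSRNOG00000038365 had 56.8 to 71.1 CPM at 20 min and 35.9 to 47.9 CPM at 24 h. It had no overlap either, but its fold change of 1.48 (log2 0.57, SE 0.09, adjusted p = 0.0317, edgeR) was just under the 1.5-fold minimum. Its adjusted p stayed under 0.05 in 1 of the 12 fits that left out a rat (0.0212, without 20-m rat 1), reached 0.158 without 20-m rat 6, and was 0.07 with no batch term and 0.061 with library sizes alone.

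**Figure D3:**
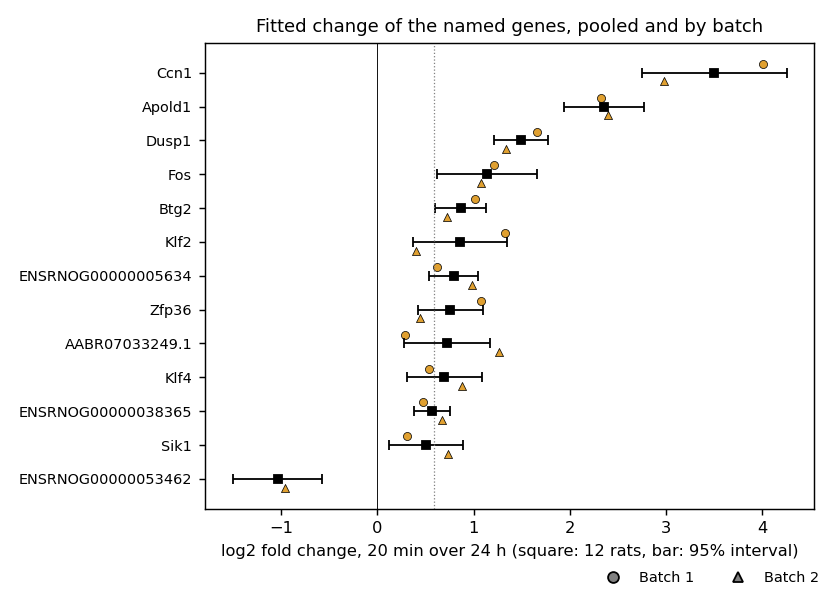
Log2 fold change (20 min over 24 h) of the 13 named or listed genes that were tested, with squares and bars for the 12-rat fit and its 95% interval, circles for Batch 1 alone, triangles for Batch 2 alone and a dotted line at a fold of 1.5. The 12-rat values run from -1.04 to 3.50, and the bars of Dusp1, Apold1, Ccn1, Fos and Btg2 lie wholly to the right of the dotted line, those of Fos and Btg2 starting at 0.62 and 0.60.

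For single genes, the difference between the group means of log2 CPM was put to exact permutation tests (two-sided, 15 genes), which gave p = 0.00216 for Dusp1, Apold1, Ccn1, Btg2, Fos, ENSRNOG00000005634 and ENSRNOG00000038365, the smallest value that 924 arrangements of 6 and 6 rats allow. Arranged within batches, the same 7 genes had p = 0.005, the smallest that 400 arrangements allow. Zfp36 and Atf3 had exact p = 0.00433 and 0.01 within batches, Klf4 0.0108 and 0.015, Klf2 0.013 and 0.03, and Sik1 0.0325 and 0.035. These are unadjusted, and ENSRNOG00000005634 and ENSRNOG00000038365 were put in because they passed in the same 12 rats, so that their p restates that choice. The other genes came from the study's list, chosen on 20-m rats of this experiment, so their p is not independent of that choice either. Over all genes tested the 2 groups of 6 rats did not overlap in 41 genes with the 20-m group higher (0.302%) and in 24 genes with it lower (0.177%).

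No single rat was the highest or the lowest of its group in every named gene, although some rats recurred at 1 end. Over the 10 named symbols, rat 2 was the highest 20-m rat in 6 and rat 12 the lowest in 4. Among 24-h rats, rats 13 and 15 were each the highest in 4, and rat 19 was the lowest in 5. Among the transcription factors of the 20-m group, rat 2 had the highest level of both Klf2 and Klf4, rat 7 that of Fos and rat 12 that of Atf3.

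Some listed genes followed batch more than time. ENSRNOG00000053462 was counted 0 to 1 times in the 20-m rats and 2 to 3 times in the 24-h rats of Batch 1, but 22, 26 and 29 times in rats 5, 7 and 12 and 54, 58 and 50 times in rats 14, 15 and 17 of Batch 2. It was thus lower at 20 min within both batches, and over 12 rats the log2 fold change was -1.04 (SE 0.22, 95% interval -1.51 to -0.57, adjusted p = 0.307, edgeR), while Batch 2 exceeded Batch 1 by 4.71 on the log2 scale. The exact p was 0.532 over all rats and 0.005 within batches. The study's list prints this identifier beside a higher level at 20 min than in control rats. Its symbol and name there differ, and the line above repeats another identifier beside a lower level at 20 min. Whether the printed value belongs to this identifier was not tested, so the directions are not compared. Over all genes tested, 96 (0.707%) were lower at 20 min without overlap in both batches, and 113 (0.833%) were higher.

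AABR07033249.1 stood at 20.5 to 27.6 CPM (20-m) and 15.4 to 22.9 CPM (24-h) in Batch 1 and at 16.6 to 20.2 CPM (20-m) and 4.34 to 9.66 CPM (24-h) in Batch 2. The groups overlapped in Batch 1 and lay apart in Batch 2, where the 24-h rats were the lowest of all. The log2 fold change was 0.28 in Batch 1 and 1.27 in Batch 2, with an unadjusted p of 0.0122 and an adjusted p of 0.526 for the difference, and 0.73 over 12 rats (adjusted p = 0.431, edgeR).

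ENSRNOG00000032585 did not pass the filter. It was listed at 0 in all 6 of the 20-m rats and in 3 of the 24-h rats, and had 15, 24 and 29 counts in 24-h rats 18, 19 and 15. The posterior SD of the count that RSEM gives, which measures how uncertainly shared reads were assigned, was 10.9 to 23.4 counts in all 12 rats, those at 0 included, so no fold is given. The other identifiers of the list had a posterior SD of 0.

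The 1 lower call of Batch 2 fitted alone had a like pattern. ENSRNOG00000027171, singled out after its values were seen, was at 0 in 20-m rats 5, 7 and 12 and had 80, 93 and 74 counts in 24-h rats 14, 15 and 17 of Batch 2 (adjusted p = 0.00588, edgeR on Batch 2 alone). In Batch 1 it was at 75, 0 and 100 counts in 20-m rats 1, 2 and 6 and at 62, 92 and 116 in 24-h rats 13, 18 and 19. Its posterior SD was 13.1 to 37.7 counts, and over 12 rats its adjusted p was 0.493. Of all 32623 genes before the filter, 46 were counted in every 20-m rat and in no 24-h rat of Batch 1. The number the other way round was 51, and in Batch 2 the numbers were 47 and 32. Over all 12 rats they were 2 and 1, and none of those 3 genes had more than 4 counts in any rat.

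**Figure D4:**
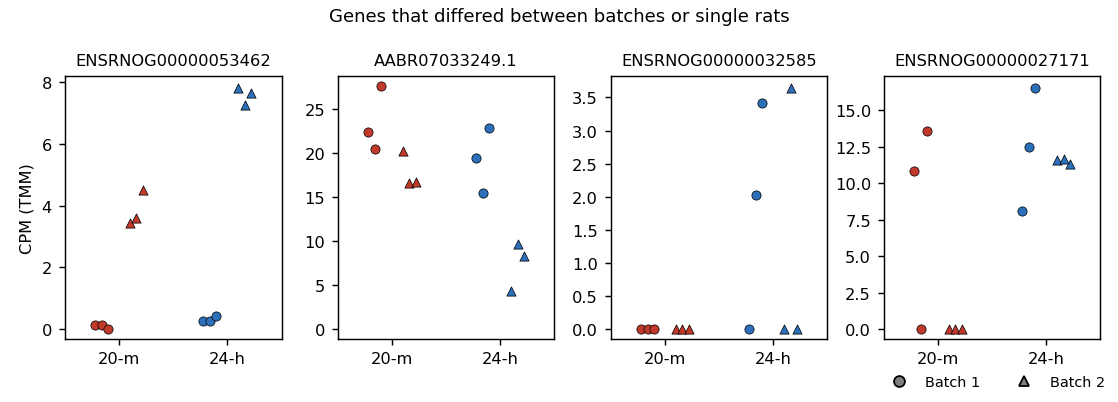
TMM-scaled CPM in each of the 12 rats for 4 genes whose level followed batch or single rats, with circles for Batch 1 and triangles for Batch 2 and no mean drawn. ENSRNOG00000053462 is near 0 throughout Batch 1, AABR07033249.1 is lowest in the 24-h rats of Batch 2, and ENSRNOG00000032585 and ENSRNOG00000027171 are at 0 in some rats and well above it in others of the same group.

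The batches share no rat, so they give the same comparison in separate animals. Batch 1 alone called 0 of 13771 genes (0%, edgeR), where 987 had an unadjusted p under 0.05 (7.17%). Batch 2 alone called 11 of 13497 (0.0815%), 10 higher (0.0741%) and 1 lower (0.00741%). Dusp1 and Apold1 were the 2 of these 11 that had the same direction and an unadjusted p under 0.05 in Batch 1, and 4 of the 11 had the same direction. Without rat 12, Batch 2 called 115 of 13721 genes (0.838%), 99 higher and 16 lower, which included all of the 11. Btg2, Dusp1, Apold1 and Ccn1 were among the 99, and ENSRNOG00000053462 was among the 16 (log2 fold change -1.09, adjusted p = 0.0425, edgeR on 2 against 3 rats). Of the 109 that were tested in Batch 1, 44 had the same direction there and 7 of these an unadjusted p under 0.05.

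Across 13345 genes tested in both batches, the log2 fold changes of Batch 1 and Batch 2 had Pearson's r = 0.0551 and Spearman's rho = 0.0558, given as a description since genes are not independent, and 52.4% of genes had the same direction. Of the 10 genes with the smallest p in Batch 1, 8 had the same direction in Batch 2 (6 without rat 12). Of the 10 with the smallest p in Batch 2, 4 had the same direction in Batch 1 (2 without rat 12). For the 100 smallest p the numbers were 56 and 47 (55 and 41 without rat 12). Of the 962 genes at an unadjusted p under 0.05 in Batch 1, 506 (52.6%) had the same direction in Batch 2 and 57 an unadjusted p under 0.05 as well. The interaction of group and batch called 0 of 13573 genes (0%), limma voom called 0 as well, and 1210 had an unadjusted p under 0.05 (8.91%). Without rat 12 it called 1. Batch itself differed far more widely, with 1401 genes at an adjusted p under 0.05 (10.3%), 923 higher in Batch 2 and 478 lower.

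**Figure D5:**
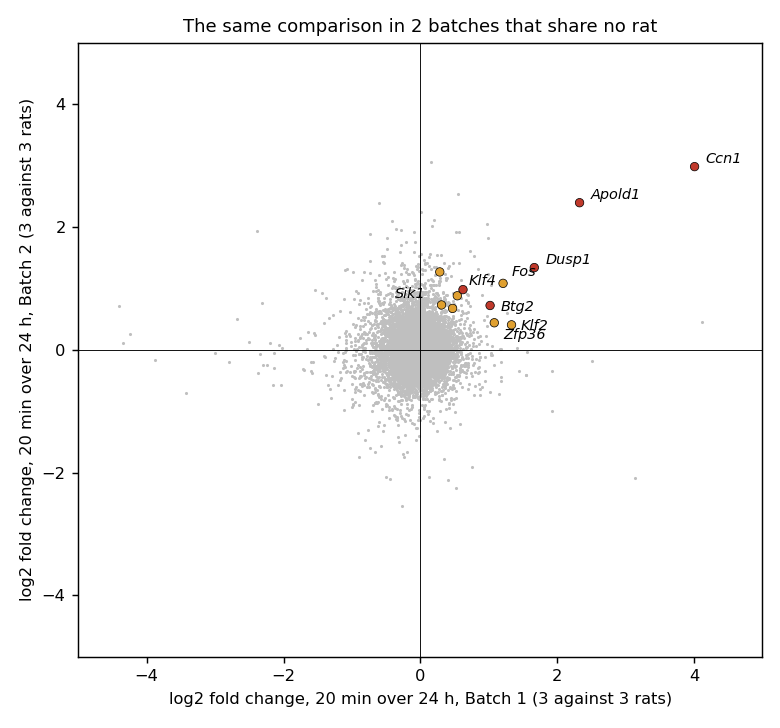
Log2 fold change (20 min over 24 h) in Batch 2 against that in Batch 1, each from 3 against 3 rats, with 13340 genes in grey and 2 beyond the axes. Red points are genes called over 12 rats and orange points are the other listed genes, and Ccn1, Apold1 and Dusp1 lie far out in the upper right, away from a cloud with no visible slope.

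The width of the intervals shows how precisely single genes were measured, before any adjustment over genes. It does not give the smallest change that the adjusted test could call. Fos, at a fold of 2.20, did not pass that test (adjusted p = 0.319, edgeR's quasi-likelihood test). The 95% interval of a gene's log2 fold change reached 0.27 to either side at the median gene (a factor of 1.20), with quartiles of 0.20 and 0.38. The typical coefficient of variation between rats of a group and batch, beyond counting error, was 0.161. The 1328 genes at an unadjusted p under 0.05 (9.78%) compare with 679 that the threshold itself gives (5%), and without rat 12 they were 1272 (9.29%). The size of this excess rested on single rats. With each rat left out in turn the count ran from 887 (without 20-m rat 6) to 1720 (without 20-m rat 7), and was 943 without 24-h rat 15 and 960 without 24-h rat 17.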

How the data were processed

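Hippocampal poly(A) RNA of single rats was sequenced by the authors (reads of 50 bases), trimmed with AdapterRemoval V2, and quantified with STAR and RSEM against Rnor 6.0, annotation release 93. The sources used here do not give versions of STAR and RSEM or whether counting used strand. The deposited expected counts (RSEM) were not normalized or corrected for batch, and the authors also deposited TPM and the posterior SD of each count. For their own calls they used TMM, voom, ComBat and limma.

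Expected counts of 12 rats were rounded and filtered with edgeR's filterByExpr (minimum count 10, total 15), which kept 13573 of 32623 genes. TMM scaling and edgeR's quasi-likelihood test with batch and group as terms were used (9 residual degrees of freedom, prior 4.55). A gene was called past a fold of 1.5 with an adjusted p under 0.05. SE is the absolute log2 fold change over the square root of F. Log2 CPM had a prior count of 2. The fits were tested on simulated data. R 4.3.3, edgeR 4.0.16, limma 3.58.1, DESeq2 1.42.0, sva 3.50.0 and Python 3.11.15 were used. Depth was 6513085 to 8202448 counts, and counts cover counting error only.

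The files give Ensembl identifiers without names. Names were taken from the study's list of 13 identifiers, of which 1 stands on 2 lines and 1 has a symbol and a name that differ, so both are given by identifier. The latter is ENSRNOG00000053462. In 20-m rat 5 it had 22 counts and 53.5 TPM, against 209 counts and 17.3 TPM for Btg2, so its effective length was the shorter. Whether it belongs to the gene named beside it was not tested, and its values are not read as levels of that gene. Other gene lists and markers were not analysed here. Genes named were those of that list and those past the adjusted p. The rats compared and the lists were chosen with earlier results of these data known. The fit without rats 12 and 13, and without rat 12 the unadjusted count and the fits of Batch 2 and the interaction, were chosen after seeing the data. Promoters are from RefSeq (GRCr8, 7 of 10 symbols matched).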

Additional observations from a re-analysis of the deposited data

Results flagged for a closer look

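In 4 of 30 groups of 6 rats (15 genes, the study's list and the pair of other identifiers past the adjusted p, in each group), a single rat lay far from its group. Its gap to the nearest other rat took more than 0.625 of the group's whole range, both on the log2 CPM scale, while levels are given in CPM. Chance gives this in about 1 in 20 groups. Sik1 was at 10.4 CPM in 20-m rat 5, against 14.2 to 16.03 CPM in the others (gap 0.716 of the log2 range). Sik1 was also at 17.5 CPM in 24-h rat 13, against 8.16 to 9.21 CPM (gap 0.842). Klf4 was at 10.4 CPM in the same rat 13, against 4.55 to 6.09 CPM (gap 0.652). Dusp1 was at 36.0 CPM in 20-m rat 2, against 24.9 to 27.4 CPM (gap 0.748). Rat 13 also stood apart on the third principal component, and its part in the values of Sik1 and Klf4 is given by the fits without it.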

How the results depend on the processing

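No paired analysis was possible because each rat was killed once, so the 20-m and 24-h groups hold different animals. The count of 5 called genes (5 higher, 0 lower) was also 5 under limma voom, voom followed by ComBat, relative log expression factors, all 19 rats in 1 fit, genes with at least 1 count and a CPM filter. It was 4 with library sizes alone and with no batch term, and 6 with no fold minimum. It was 12 under DESeq2 (9 higher and 3 lower), 0 in Batch 1 alone, 11 in Batch 2 alone, 3 under glmTreat against a fold of 1.5, 3 on log2(TPM + 0.5) and 3 on log2(TPM + 0.1), and 8 without rats 12 and 13. With each rat left out in turn it was 3 to 5, and Apold1, Dusp1 and Ccn1 passed in all 12 of these fits. Btg2 and ENSRNOG00000005634 each passed in 2 of the 12 and in 9 of the 15 other settings. No named gene changed direction under any alternative. DESeq2 put Fos and Zfp36 (adjusted p 0.0117 and 0.0351) past both thresholds. In Batch 1 alone no named gene passed. The cause of these differences was not tested. The genes at an unadjusted p under 0.05 were 1328, and 887 to 1720 with each rat left out in turn. Scaling moved the median log2 fold change of all genes by at most 0.0084. Counts of under 10 in the 24-h rats limit Ccn1 and Atf3.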
